A study of Mus musculus with 34 samples.

Results

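The genes described here are the mouse genes for ribosomal proteins, leaving out Rps2, in RNA from pancreatic islets. They were taken by name from the count table: a symbol of Rps or Rpl followed by a digit, or Rpsa, Rplp0, Rplp1 or Rplp2. Names of ribosomal S6 kinases, names marked as pseudogenes by -ps, and genes with fewer than 50 counts over all libraries were dropped. Of 48709 genes in the table, 91 met the name rule and 85 passed the minimum. The other 6 were Rpl3l with 25 counts, Rpl10l with 1 count, and Rps4l, Rps12l1, Rps3a2 and Rps3a3 with 0 counts. By role the 85 genes comprised 30 for the small (40S) subunit, 43 for the large (60S) subunit, 3 for the P stalk, 5 paralogs and 3 near-identical copies (Rps27rt, Rpl37rt and Rpl6l). The last gene, Rps19bp1, meets the name rule but encodes a binding partner of Rps19 and not a ribosomal protein. The genes lie on 19 chromosomes.

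The study followed islets after partial loss of beta cells, and bulk RNA, made into libraries with an mRNA kit, was sequenced in 33 libraries of 9 groups. All mice, controls included, were RIP-DTR HTZ: the rat insulin promoter drives the diphtheria toxin receptor, so that diphtheria toxin (DT) kills the cells that express it, which are beta cells. DT islets were taken at 30 DPA (4 libraries) and at 5 DPA (4 libraries), where DPA is read as days post ablation, and were set against untreated CTRL islets (3 libraries), whose labels give neither a time nor a diet. At 10 weeks, islets of mice on a high-fat diet (HFD) came after streptozotocin (STZ, a chemical toxin of beta cells) at 75 mg/kg (4 libraries), after DT (3 libraries) or from untreated controls (4 libraries), and islets of mice on a standard diet (SD) came after STZ at 75 mg/kg (4 libraries), after DT (4 libraries) or from untreated controls (3 libraries). SD and HFD are the labels' abbreviations, read here as standard and high-fat diet. No label gives the animals' age or says that libraries came from separate animals, so the p-values measure the spread between these libraries, which may be technical.

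Each ribosome pairs a small subunit, which decodes the messenger RNA, with a large subunit, which joins amino acids. Nearly every ribosomal protein is present in the same number on each ribosome, and cells make the proteins of both subunits together. Most of their messenger RNAs begin with a cytosine followed by a run of pyrimidines, the 5′ terminal oligopyrimidine (TOP) motif, through which the kinase complex mTORC1 and the binding protein Larp1 control their translation. Ribosome output sets how much protein a secretory cell such as the beta cell can make, and dividing cells also make more ribosomes.

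A stretch by the start of transcription is shown for 10 of these genes, because the shared pyrimidine run is the sequence feature the family is known for. RefSeq promoter sequences (GRCm38.p6, 250 bases before to 50 bases after the annotated start) matched 64 of the 85 genes. Each line gives 30 bases, 5′ to 3′ on the gene's own strand, and capitals mark the longest run of pyrimidines that opens with C and lies between 20 bases before and 50 bases after the annotated start. The stretch follows that run, and for Rpl24, whose run begins 33 bases past the annotated start, it lies wholly downstream of it. The first 6 are subunit and stalk genes with a run of at least 7 bases. The last 4 are genes whose longest run in that window was shorter. The window follows the annotated start, so a short run here does not show that the messenger RNA lacks a TOP motif.
Rps6, chr4:86857349-86857378, minus strand: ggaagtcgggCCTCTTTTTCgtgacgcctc
Rps9, chr7:3704025-3704054, plus strand: aaccgccttgtCTCTCTTTgtctcgggcct
Rps26, chr10:128626484-128626513, minus strand: agccgccggatCCTCTTTCgagtcttggct
Rpl18, chr7:45718062-45718091, plus strand: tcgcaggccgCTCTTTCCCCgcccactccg
Rpl7a, chr2:26910789-26910818, plus strand: acaattCCCTCTTCTTTCTTTCTCCagcag
Rplp2, chr7:141447636-141447665, plus strand: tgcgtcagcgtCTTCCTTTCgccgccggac
Rplp0, chr5:115559467-115559496, plus strand: ggaccgcctggttCTCCTataaaaggcaca
Rpl24, chr16:55966295-55966324, plus strand: gaagtgacatcatCTCTgggcgccggggtc
Rpl7l1, chr17:46782647-46782676, minus strand: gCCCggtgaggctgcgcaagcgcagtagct
Rps19bp1, chr15:80264292-80264321, minus strand: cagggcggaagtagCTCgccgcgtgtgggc

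A run of C followed by C or T over at least 7 bases stood by the start on the sense strand in 49 of the 64 genes (76.6%), against 32.9% of 27025 genes. Here and below a gene counts where any of its windows holds the match, so genes with several annotated starts had more chances. The median longest run was 10 bases in the ribosomal protein genes and 5 bases in all genes. The run was found in 15 of 22 matched 40S genes, 28 of 32 60S genes, 1 of 2 stalk genes, 4 of 5 paralogs, 1 of 2 copies and not in Rps19bp1. The hexamer CTTTCC stood by the start on the sense strand in 31.2% of the 64 genes and 3.79% of all genes, while its reverse complement GGAAAG stood there in 1.56% and 3.80%. Over the whole window and on both strands, CTTTCC was found in 53.1% of the ribosomal protein genes and 29.3% of all genes. The ETS-type motif CCGGAAG was found in 39.1% and 9.93%, the YY1-type motif AAGATGGC in 9.38% and 3.19%, and the TATA box form TATAAA in 9.38% and 15.7%. These are matches of letters in an annotated window, not sites of binding.

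Levels between libraries are given as CPM, read counts scaled to the library's size with TMM factors. The libraries held between 11083117 and 18918348 counts, and the 85 genes took between 2.32% and 9.63% of them. The islet label held in every library: the list of beta-cell markers, Ins1 and Ins2 among them, took between 3.66% and 27.9% of the counts. Other cells were present as well. STZ HFD replicate 4 had 39.8% of its counts on 22 markers of acinar cells, the enzyme-secreting cells of the pancreas around the islets. A summed level of enterocyte markers above 500 CPM was seen in 8 libraries: 3 of DT 5 DPA, 2 of STZ SD and 1 each of DT 30 DPA, CTRL and DT HFD. All 15 lymphocyte markers had counts in every library, and their summed level ran between 109 and 2876 CPM. In bulk RNA, fewer cells of a type and less RNA per cell cannot be told apart.

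Per length, the stalk protein gene Rplp1 had the highest level of the 85, with 4187 ± 1472 deposited TPM (SD, n = 33). Rps24 was next at 2330 ± 1329 TPM. Rps6, whose protein is the S6 phosphorylated downstream of mTORC1, was 22nd with 1102 ± 448 TPM. The other stalk genes stood well under Rplp1: Rplp0, which anchors the stalk to the ribosome, had 608 ± 262 TPM and Rplp2 had 315 ± 145 TPM. Rpl3, at the peptidyl transferase centre, had 296 ± 118 TPM. The median of the genes' mean TPM was 720 for the 30 40S genes and 428 for the 43 60S genes. The paralogs and Rps19bp1 lay below these medians: Rpl36al 230 ± 51.7 TPM, Rps27l 134 ± 41.8 TPM, Rpl22l1 119 ± 42.7 TPM, Rpl7l1 40.9 ± 13.5 TPM and Rps19bp1 22.6 ± 7.17 TPM. The testis-associated paralog Rpl39l (0.265 TPM, 54 counts in all) and the copy Rpl6l (0.324 TPM, 71 counts in all) were near the limit of detection, did not pass the filter on low counts, and were not tested. Levels between genes rest on how reads were shared among copies, which differed widely here and is described at the end.

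The 83 genes that were tested moved together from library to library. For each gene, Pearson's r was taken over the 33 libraries between its log2 CPM and the mean of the other members, as a description with no test. The median r was 0.94, and 58 of the 83 genes reached 0.9, led by the 60S genes Rpl17 (0.99) and Rpl14 (0.99). Of 2551 other genes of like abundance, 0.353% reached 0.9 with the same mean, and their median r was -0.09. All of these r share the libraries, the scaling and the mix of cells. The 8 members under 0.7 were Rps19bp1 (0.28), Rpl21 (0.31), Rpl27 (0.47), Rpl7l1 (0.49), Rpl10 (0.49), Rps27l (0.56), Rpl29 (0.59) and Rpl36al (0.68). They include the non-ribosomal name, 3 of the 4 tested paralogs, and Rpl10, Rpl21 and Rpl27. Each of the last 3 shares sequence with an abundant gene elsewhere in the table, Rpl21 only 11.05% of its own. The fourth tested paralog, Rpl22l1, was not among the 8. Other members with an abundant copy also stood above 0.7: Rpl9 and Rpl15 at 0.95, Rps27 and Rpl35 at 0.94, Rpl24 at 0.88, Rpl37a at 0.82, and Rps18 and Rpl37 at 0.80. Matched genes with a pyrimidine run of at least 7 bases had a median r of 0.946 (n = 48), and those without one 0.903 (n = 15).

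**Figure D1:**
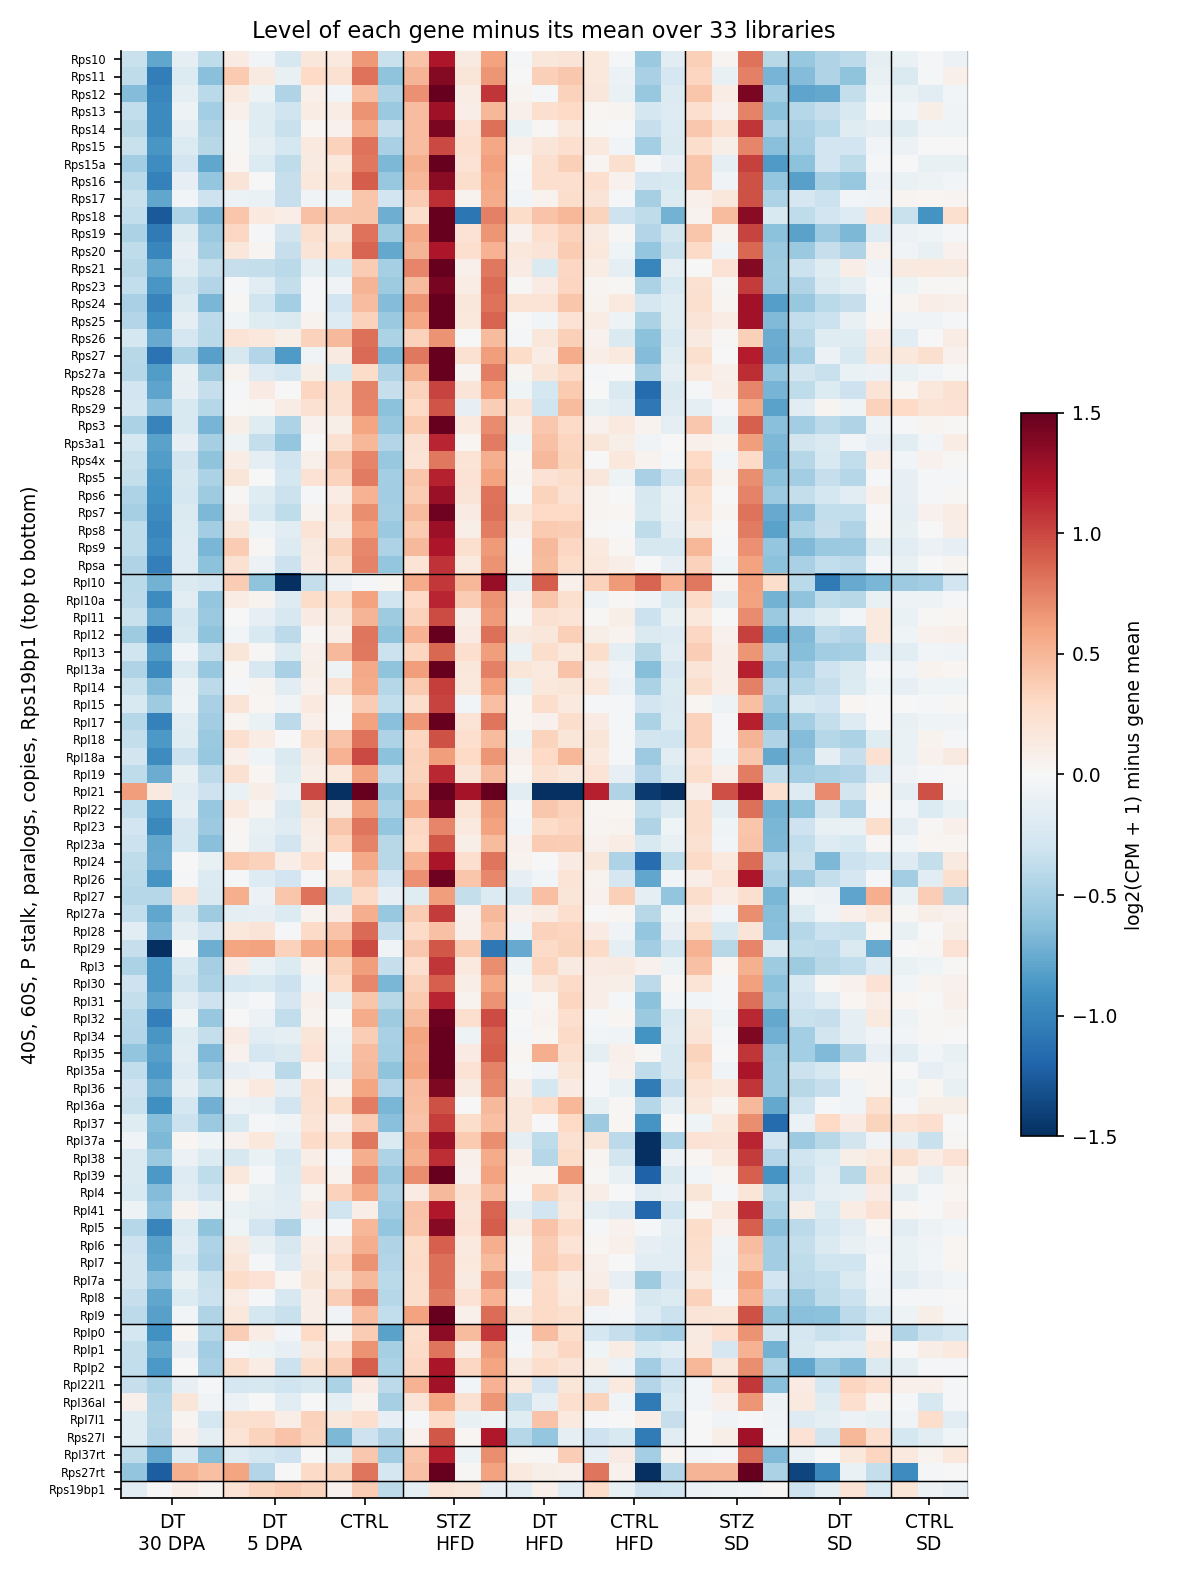
Colour shows log2(CPM + 1) of each of the 83 tested genes (rows, ordered by role) in each of 33 libraries (columns, by group), as the difference from that gene's mean. Columns of one colour run through nearly all rows, and the rows of Rpl10, Rpl21, Rps27l and Rps19bp1 depart from them.

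The members' levels also varied more between libraries than those of other genes. The SD of log2 CPM over the 33 libraries had a median of 0.461 over members and 0.291 over the genes of like abundance. The lowest was Rpl7l1 (0.204), the highest Rpl21 (1.22). Translation factors and other TOP genes that are not ribosomal proteins followed the members in part. Of 21, 8 reached an r of 0.9, namely Tpt1, Eef1b2, Naca, Rack1, Eif3h, Eif3e, Eef1a1 and Btf3. The median r over the 21 was 0.78, and the lowest were Eif4b (0.39), Pabpc1 (0.39), Eif3l (0.44) and Eef2 (0.485). An r of 0.9 was reached by none of 30 ribosome biogenesis genes, 15 genes of mTORC1 and TOP control, or 77 mitochondrial ribosomal protein genes. Their median r were 0.35, -0.20 and 0.37.

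Summed over the 85 genes, levels spread as widely within some groups as between them. The DT 30 DPA libraries summed to 28858, 20432, 32747 and 26509 CPM, the DT 5 DPA libraries to 38610, 34543, 30763 and 39748, and the CTRL libraries to 41033, 56701 and 26110. The DT 30 DPA sums lay mostly below the DT 5 DPA sums, with DT 30 DPA replicate 3 inside their range, and the 3 CTRL libraries lay from among the lower DT 30 DPA values to above every DT 5 DPA value. On HFD, the STZ libraries summed to 49345, 85966, 41201 and 59175, the DT libraries to 37521, 42970 and 44962, and the CTRL HFD libraries to 38923, 36775, 28308 and 32596. Every STZ HFD library was above every CTRL HFD library, while 1 DT HFD library fell within the CTRL HFD range. On SD, the STZ libraries summed to 43295, 37546, 65055 and 24701, the DT libraries to 27618, 30121, 31570 and 37253, and the CTRL SD libraries to 34997, 36704 and 37711. The STZ SD libraries lay on both sides of the narrow CTRL SD range, and 3 of 4 DT SD libraries lay below it. STZ HFD replicate 2 had the highest sum of the 33 libraries. Replicate 4 of that group, rich in acinar RNA, had only 2.75% of its raw counts on members and reached its high sum through a TMM scaling factor of 0.464.

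**Figure D2:**
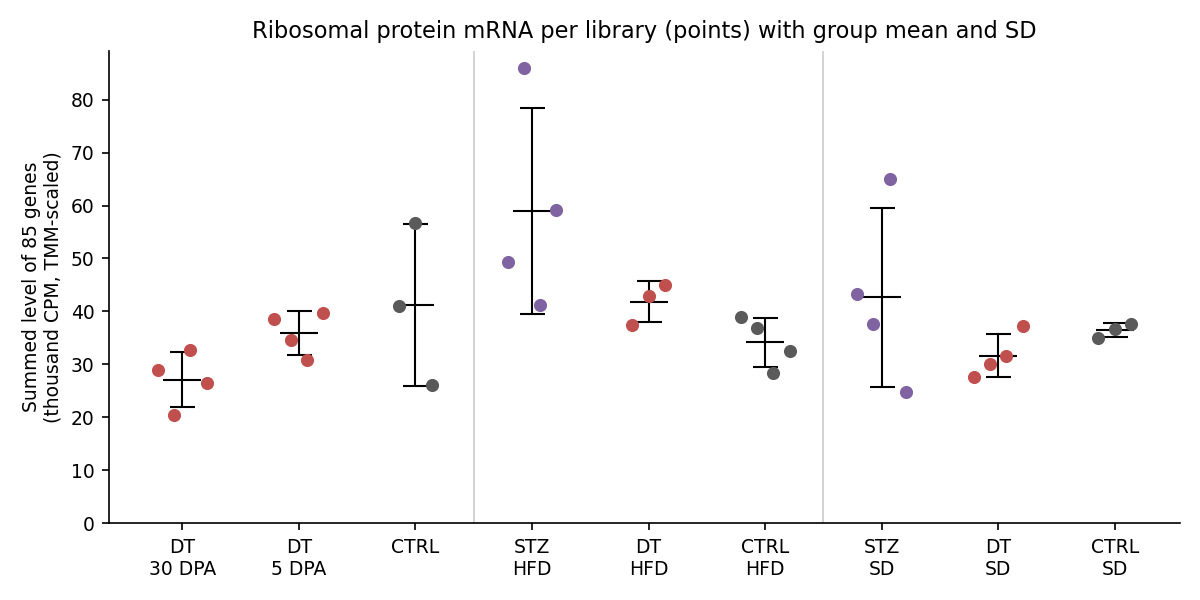
Points show the summed level of the 85 genes in CPM (TMM-scaled) for each library, by group, with bars for the mean and SD. STZ HFD stands highest with 58922 ± 19470 and DT 30 DPA lowest with 27137 ± 5157, and CTRL and both STZ groups have the widest spread.

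The 3 stalk genes, Rps6 of the small subunit and Rpl3 of the large subunit all had their highest mean in STZ HFD islets. Rps6 averaged 611 ± 109 CPM in DT 30 DPA, 810 ± 86.5 in DT 5 DPA and 945 ± 327 in CTRL islets (SD over the libraries of each group), then 1465 ± 514 in STZ HFD, 1009 ± 117 in DT HFD and 840 ± 71.4 in CTRL HFD islets, and 1007 ± 368 in STZ SD, 786 ± 103 in DT SD and 858 ± 41.6 in CTRL SD islets. Rpl3 averaged 328 ± 57.6 in DT 30 DPA, 454 ± 45.9 in DT 5 DPA and 555 ± 179 in CTRL, then 698 ± 213 in STZ HFD, 509 ± 70.1 in DT HFD and 484 ± 32.6 in CTRL HFD, and 523 ± 161 in STZ SD, 357 ± 35.6 in DT SD and 448 ± 18 in CTRL SD. Both had their lowest mean in DT 30 DPA islets. Rplp1 averaged 787 ± 147 in DT 30 DPA, 1045 ± 82.8 in DT 5 DPA and 1229 ± 467 in CTRL, then 1477 ± 324 in STZ HFD, 1181 ± 138 in DT HFD and 999 ± 102 in CTRL HFD, and 1055 ± 376 in STZ SD, 984 ± 120 in DT SD and 1117 ± 62 in CTRL SD. Rplp2 averaged 243 ± 59.6 in DT 30 DPA, 342 ± 59.7 in DT 5 DPA and 414 ± 185 in CTRL, then 508 ± 168 in STZ HFD, 368 ± 17.1 in DT HFD and 281 ± 50.7 in CTRL HFD, and 392 ± 126 in STZ SD, 221 ± 38.4 in DT SD and 307 ± 14.2 in CTRL SD. Rplp2 had its lowest mean in DT SD islets, below that of DT 30 DPA. Rplp0 averaged 395 ± 102 in DT 30 DPA, 578 ± 73.9 in DT 5 DPA and 490 ± 187 in CTRL, then 912 ± 313 in STZ HFD, 598 ± 103 in DT HFD and 384 ± 31.1 in CTRL HFD, and 596 ± 161 in STZ SD, 440 ± 58.4 in DT SD and 398 ± 26.1 in CTRL SD. Unlike the other 4 genes, Rplp0 had its lowest mean in CTRL HFD islets, and its mean in every ablated group at 10 weeks was above that of the control on the same diet. Rps27rt, the copy of Rps27, averaged between 56.6 ± 22.2 in DT SD and 153 ± 82.3 in STZ HFD islets, with SDs up to 89 in STZ SD.

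At 5 DPA no ribosomal protein gene passed the test against CTRL islets, and 70 of 83 had a log2 fold change below 0. In DT 5 DPA against CTRL islets, 0 of 83 members passed edgeR's quasi-likelihood test at a Benjamini-Hochberg adjusted p under 0.05, where 5.39% of all 17616 genes did. DESeq2 also called 0 (8.11% of genes), and 1 member, Rps27l, was higher at an unadjusted p under 0.05 in edgeR (9.54% of genes). The members' median log2 fold change was -0.18, that of all genes was -0.05, and without CTRL replicate 2 the members' median was 0.12. The 1 member without overlap between groups was Rps27l, a paralog of Rps27 known as a p53 target, against a background of 9.64% of genes higher without overlap. Rps27l had 65.3, 72, 76.9 and 71.7 CPM in DT 5 DPA islets, against 35.3, 45.5 and 41.3 in CTRL islets. All 4 DT 5 DPA libraries lay above all CTRL libraries, with a log2 fold change of 0.81 (SE 0.29), yet the edgeR adjusted p was 0.104. Fitted with these 2 groups alone it was 0.0306, and over all alternatives it ran between 0.0306 and 0.348. Rpl22l1, a paralog of Rpl22, had 51.3, 51.4, 49.3 and 51.4 in DT 5 DPA islets, against 43.6, 66.7 and 46.3 in CTRL islets. The DT 5 DPA values lay inside the CTRL range (log2 fold change -0.04, SE 0.28, edgeR adjusted p 0.963), and the sign turned under several of the alternatives.

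At 30 DPA, levels of nearly all members were below those at 5 DPA, and 5 genes passed the test. The log2 fold change of DT 30 DPA over DT 5 DPA was below 0 in 80 of 83 members, with a median of -0.42, against 0.02 for all genes. By role the median was -0.45 for 40S, -0.42 for 60S and -0.49 for stalk genes. The 5 calls, all lower, stand against a background of 30.5% of all genes called, with 13.9% of all genes lower. At an unadjusted p under 0.05, 21 members were lower (19% of genes), and DESeq2 called 13 (33.8% of genes). In 24 members the libraries did not overlap and DT 30 DPA was lower, against 16.5% of all genes.

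Rpl7l1, a relative of the 60S protein gene Rpl7, had 47.7, 40.5, 56.0 and 45.1 CPM in DT 30 DPA islets, against 64.3, 64.8, 58.3 and 69.5 in DT 5 DPA islets. No library overlapped, and the gene fell by 0.44 on the log2 scale (SE 0.13, edgeR adjusted p 0.0116). Rpl29, a small 60S protein, had 94.1, 41.6, 120 and 71.5 in DT 30 DPA islets, against 181, 183, 153 and 176 in DT 5 DPA islets. All 4 DT 30 DPA values were lower, that of replicate 2 most, and the gene fell by 1.08 (SE 0.34, edgeR adjusted p 0.0171). Rpl18, of the 60S subunit, had 294, 206, 332 and 254 in DT 30 DPA islets, against 445, 406, 378 and 444 in DT 5 DPA islets. The groups did not overlap, and it fell by 0.62 (SE 0.22, edgeR adjusted p 0.0303). Rps26, at the exit of the messenger RNA channel of the 40S subunit, had 320, 227, 320 and 288 in DT 30 DPA islets, against 439, 426, 408 and 486 in DT 5 DPA islets. It fell by 0.61 without overlap (SE 0.22, edgeR adjusted p 0.0377). Rpl7a, of the 60S subunit, had 198, 153, 222 and 190 in DT 30 DPA islets, against 291, 279, 244 and 273 in DT 5 DPA islets. It fell by 0.51, again without overlap (SE 0.19, edgeR adjusted p 0.0425).

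Rps27l was not called in this comparison: DT 30 DPA islets had 49.9, 41.5, 60.1 and 51.4 CPM, with a log2 fold change of -0.50 and an edgeR adjusted p of 0.157, although all 4 lay below all 4 DT 5 DPA libraries. Rpl22l1 had 47.7, 43.7, 55.9 and 60.3 in DT 30 DPA islets, on both sides of the DT 5 DPA values (log2 fold change 0.03, edgeR adjusted p 0.941). With single libraries left out, the number of calls was 1 without replicate 2, 2 without replicate 4 and 10 without replicate 1 or 3 of DT 30 DPA. It was 2 without replicate 1 or 4 and 8 without replicate 3 of DT 5 DPA. Markers of other cells moved with this comparison, and 5 of the 11 marker lists had summed levels without overlap. The 14 myeloid markers, of macrophages among others, summed to between 737 and 1650 CPM in DT 30 DPA islets and between 6423 and 9646 in DT 5 DPA islets, with none at 0 in any library. Mesenchymal markers summed to between 946 and 1178 in DT 30 DPA and between 3184 and 4350 in DT 5 DPA islets, and cell-cycle markers to between 125 and 308 in DT 30 DPA and between 491 and 682 in DT 5 DPA islets. These 3 lists were lower at 30 DPA, as the members were, while the endocrine lists were higher. Beta-cell markers summed to between 126942 and 308495 in DT 30 DPA and between 32614 and 122612 in DT 5 DPA islets, and alpha-cell markers to between 31304 and 43055 in DT 30 DPA and between 9957 and 16034 in DT 5 DPA islets. The part of these cells in the result was not tested. Of the 8 libraries rich in enterocyte markers, 3 were DT 5 DPA, and without all 8, which keeps 1 DT 5 DPA library, the members' median was -0.10 with 1 call.

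In DT 30 DPA against CTRL islets, 0 of 83 members passed edgeR's test, where 0.233% of all genes did. At an unadjusted p under 0.05, 48 members were lower and 0 higher, against 13.2% of all genes lower, and DESeq2 called 20, all lower, where it called 11.1% of genes. The median log2 fold change was -0.58, and 80 of 83 members were below 0. The smallest adjusted p was that of Rpl18 (0.0573), and 1 member, Rpl10, was lower without overlap, against 4.92% of genes. With the counts of its copy Rpl10-ps3 added the groups overlapped, at 440 to 633 CPM in DT 30 DPA and 546 to 772 in CTRL islets. The count depended on single libraries. Without CTRL replicate 3, which had the lowest sum of its group, edgeR called 48 members, all lower. Without DT 30 DPA replicate 1 it called 2. The share of all genes called in these fits is not given here, so neither count has a background. Lymphocyte markers summed to between 301 and 694 CPM in DT 30 DPA islets and between 348 and 2753 in CTRL islets, with overlap, and alpha-cell markers, the 1 list of 11 without overlap, to between 31304 and 43055 in DT 30 DPA and between 7795 and 27934 in CTRL islets. With the lymphocyte score as a covariate the median was -0.24, and without the 8 libraries highest in that score, which keeps 1 CTRL library, it was 0.04.

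In STZ HFD against CTRL HFD islets, every tested ribosomal protein gene had a log2 fold change above 0, and 3 passed the test. The median over the 83 members was 0.80, against 0.02 for all genes, with medians of 0.83 for 40S, 0.72 for 60S and 0.85 for stalk genes. The 3 calls were all higher (background 0.471% of all genes called, 0.329% higher). At an unadjusted p under 0.05, 76 were higher and none lower, against 7.75% of all genes higher, and DESeq2 called 41, all higher, where it called 3.12%. In 52 members every STZ HFD library exceeded every CTRL HFD library, against 4.22% of genes.

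Rplp0 had 606, 1284, 704 and 1051 CPM in STZ HFD islets, against 421, 397, 363 and 354 in CTRL HFD islets. The lowest STZ HFD library was above the highest CTRL HFD one, and the gene rose by 1.25 on the log2 scale (SE 0.24, edgeR adjusted p 0.0261). Rpl24, of the 60S subunit, had 314, 515, 262 and 382 in STZ HFD islets, against 246, 158, 98.8 and 168 in CTRL HFD islets. The groups did not overlap, and the log2 fold change was 1.13 (SE 0.26, edgeR adjusted p 0.0436). Of the summed counts of Rpl24 and its copy Gm28037, Rpl24 held between 73.1% and 79.6% in STZ HFD islets and between 38.2% and 78.8% in CTRL HFD islets. Summed, the pair had a log2 fold change of 0.72 and an edgeR adjusted p of 0.0794, so the call for Rpl24 did not hold once its copy was added. Over all alternatives, this one included, the adjusted p of Rpl24 ran between 0.00266 and 0.658. Rpl41, the shortest ribosomal protein, had 908, 1553, 771 and 1241 in STZ HFD islets, against 616, 590, 300 and 550 in CTRL HFD islets. It rose by 1.12 without overlap (SE 0.26, edgeR adjusted p 0.0453). The low CTRL HFD value was that of replicate 4, in which members were low in general: relative to the other libraries of the group, the 28 members with transcripts under 600 bases stood at a median of -0.48 and the 53 longer ones at -0.32 on the log2 scale. That gap of -0.16 lies within the range of the other libraries, -0.25 to 0.32. A second measure did not: over the same members, Pearson's r between log2 transcript length and this deviation was 0.44 in replicate 4. In the other libraries that r lay between -0.34 and 0.37. The part of transcript length in the calls was not tested.

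Other members named for their role had like values without a call. Rps6 had 1145, 2158, 1012 and 1545 CPM in STZ HFD islets, against 906, 886, 748 and 822 in CTRL HFD islets. Rplp1 had 1286, 1843, 1136 and 1645 in STZ HFD islets, against 1010, 1137, 904 and 944 in CTRL HFD islets. In Rps6 the groups did not overlap, while in Rplp1 the lowest STZ HFD library stood just under the highest CTRL HFD one. The calls rested on few libraries: 0 were made without CTRL HFD replicate 3, 4 or 5 or without STZ HFD replicate 2 or 4, 5 without STZ HFD replicate 1 and 24 without STZ HFD replicate 3. Without STZ HFD replicate 2 the median was 0.55. Lymphocyte markers summed to between 1005 and 2263 in STZ HFD islets and between 954 and 1809 in CTRL HFD islets, and with their score as a covariate the median was 0.72 with 25 calls. Acinar markers summed to between 9833 and 857453 CPM in STZ HFD islets and between 41400 and 113875 in CTRL HFD islets, and with an acinar covariate 5 members were called.

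**Figure D3:**
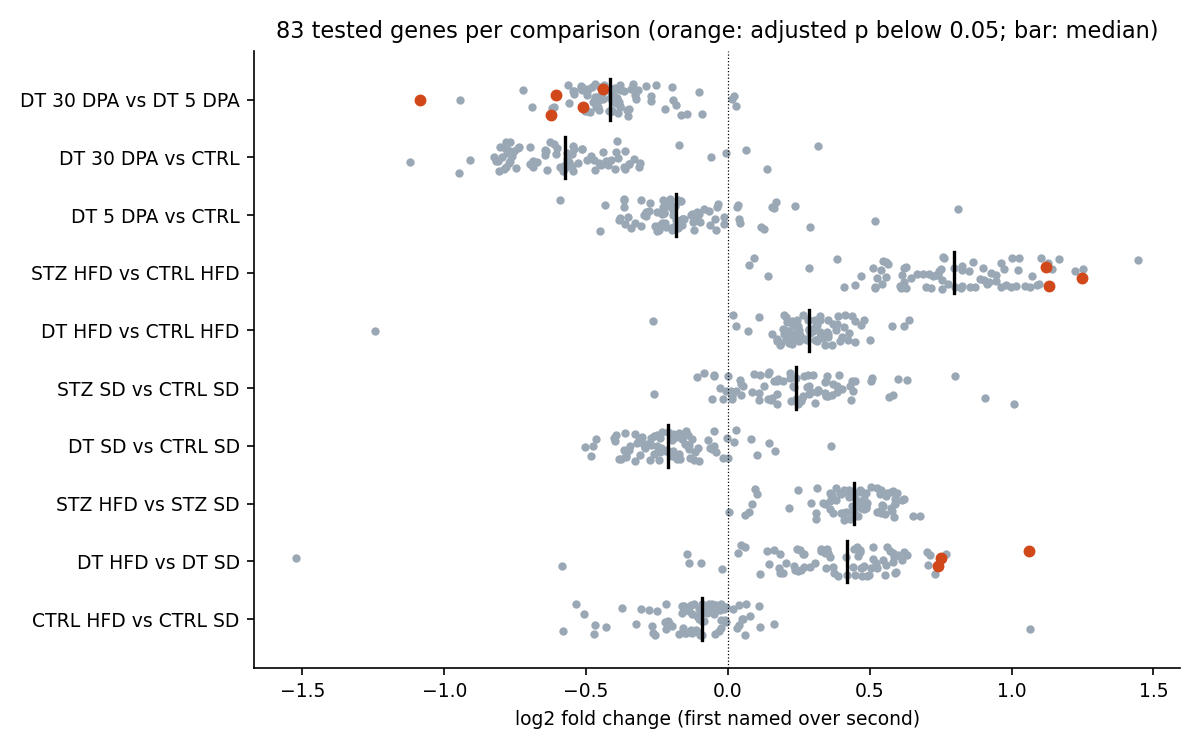
Points show the log2 fold change (x axis) of each of 83 tested members in each comparison between groups (rows), in orange where the adjusted p was under 0.05, with a bar at the members' median. STZ HFD against CTRL HFD lies wholly above 0 with a median of 0.80, and DT 30 DPA against DT 5 DPA lies almost wholly below it with a median of -0.42.

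The other 10-week comparisons with controls gave no call. In DT HFD against CTRL HFD islets the median log2 fold change was 0.29, 1 member, Rplp0, was higher at an unadjusted p under 0.05 (6.73% of genes), and edgeR (0.00568% of genes) and DESeq2 (0.358%) each called 0, while 17 members were higher without overlap (5.14% of genes). In DT SD against CTRL SD islets the median was -0.21, 0 members had an unadjusted p under 0.05 (7.95% of genes), edgeR (0.0341%) and DESeq2 (0.876%) called 0, and 16 members were lower without overlap (8.58% of genes). In STZ SD against CTRL SD islets the median was 0.24, 3 members (Rpl10, Rplp0 and Rps27l) were higher at an unadjusted p under 0.05 (9.34% of genes), edgeR (0.00568%) and DESeq2 (4.15%) called 0, and 2 members, Rpl10 and Rps27l, were higher without overlap (3.62% of genes). The last median was -0.04 without STZ SD replicate 3. For Rpl10 with its copy Rpl10-ps3 added, the STZ SD and CTRL SD libraries overlapped, at 527 to 1041 and 659 to 727 CPM. The DT SD median was 0.20 with the lymphocyte score as a covariate. That score did not overlap between DT SD (2.37 to 5.57) and CTRL SD libraries (5.61 to 5.95), so the fit cannot decide these cells' part. The comparisons on one diet share their control libraries.

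Whether the effect of ablation differed by diet was tested as an interaction. For DT, the median difference, HFD minus SD, was 0.52 on the log2 scale, with 2 members, Rpl9 and Rplp2, above 0 at an unadjusted p under 0.05 (9.97% of genes). For STZ it was 0.57, with 6 such members (1.81% of genes). In both, edgeR and DESeq2 called 0 members, edgeR called 0% of all genes, and DESeq2 called 0.733% for DT and 0.339% for STZ.

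Between diets within a treatment, 3 members were higher in DT HFD than in DT SD islets (background 23.5% of all genes called, 15.0% higher). The median log2 fold change was 0.42, against -0.01 for all genes, with 77 of 83 members above 0, and 41 members were higher without overlap (20.7% of genes). At an unadjusted p under 0.05, 22 were higher (22.3% of genes), and DESeq2 called 7 (29.9% of genes). Rplp2 had 351, 385 and 368 CPM in DT HFD islets, against 187, 216, 203 and 275 in DT SD islets. The groups lay apart, and the gene rose by 0.74 (SE 0.27, edgeR adjusted p 0.0477). Rps9, a 40S protein whose yeast counterpart affects the accuracy of decoding, had 498, 711 and 629 in DT HFD islets, against 319, 343, 347 and 448 in DT SD islets. It rose by 0.75 without overlap (SE 0.26, edgeR adjusted p 0.0406). Rpl10, which joins the 60S subunit last and is needed for it to pair with the 40S, had 202, 431 and 241 in DT HFD islets, against 173, 109, 135 and 142 in DT SD islets. Its own count rose by 1.06 (SE 0.31, edgeR adjusted p 0.0169), but with its copy Rpl10-ps3 added the log2 fold change was -0.10 (edgeR adjusted p 0.740). That was the highest adjusted p over all alternatives for Rpl10, and the lowest was 0.00133.

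Of the 11 marker lists, 5 had summed levels without overlap between DT HFD and DT SD islets: lymphocyte and cell-cycle markers were higher on HFD, and beta-cell, acinar and endothelial markers lower. The 15 lymphocyte markers summed to between 1597 and 2876 CPM in DT HFD islets and between 109 and 1021 in DT SD islets, and cell-cycle markers averaged 785 ± 498 in DT HFD islets (SD, n = 3) and 177 ± 54.7 in DT SD islets (SD, n = 4). Beta-cell markers summed to between 30075 and 111211 in DT HFD and between 232447 and 254622 in DT SD islets, acinar markers to between 9625 and 28784 in DT HFD and between 53315 and 235847 in DT SD islets, and endothelial markers to between 370 and 473 in DT HFD and between 531 and 675 in DT SD islets. With the lymphocyte score as a covariate the median of members was -0.14 and no member was called, and with the acinar score as a covariate no member was called either. Neither score overlapped between these groups: the lymphocyte score was 5.93 to 6.88 in DT HFD and 2.37 to 5.57 in DT SD libraries. The adjustment therefore reaches past the values the groups share, and these fits cannot decide the part of these cells. That part was not tested. Single libraries decided the calls: 0 were made without DT HFD replicate 2, and 1 without DT HFD replicate 3 or DT SD replicate 1, 2 or 3. In STZ HFD against STZ SD islets the median was 0.45, all 83 members were above 0, 16 were higher at an unadjusted p under 0.05 (3.34% of genes), and edgeR (0.136%) and DESeq2 (3.60%) each called 0. Without STZ SD replicate 3, which had the highest sum of its group, edgeR called 23, with no share of all genes given for that fit. In CTRL HFD against CTRL SD islets the median was -0.09, which turned to 0.08 when libraries were scaled by their totals alone. There edgeR called 0 members and 0% of genes, DESeq2 called 0 members and 0.137% of genes, Rpl10 was the 1 member higher (1.14% of genes) and Rps29 the 1 lower (1.36%) at an unadjusted p under 0.05, and 1 (Rpl10) was higher (3.46% of genes) and 7 lower (4.23%) without overlap.

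Over all 33 libraries, the mean log2 level of members followed the score of lymphocyte markers more than that of any other cell list tried. Pearson's r was 0.62 and Spearman's rho 0.66, given as a description, since both scores share the libraries and the scaling. Without the 2 libraries farthest from the median lymphocyte score, both DT SD, r was 0.65, and over deviations from group means it was 0.60. For the cell-cycle list r was 0.43 (rho 0.49, 0.53 over deviations), and for the myeloid list r was 0.15 while rho was 0.41 and r over deviations 0.43. For the beta-cell list r was -0.50 (rho -0.58, -0.48 over deviations), for the alpha-cell list -0.44 (rho -0.48, -0.34 over deviations) and for the endothelial list -0.38 (rho -0.36, -0.26 over deviations). For acinar, enterocyte, mesenchymal, duct and delta-cell markers r lay between -0.13 and 0.02. The part of these cells in the members' levels was not tested.

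**Figure D4:**
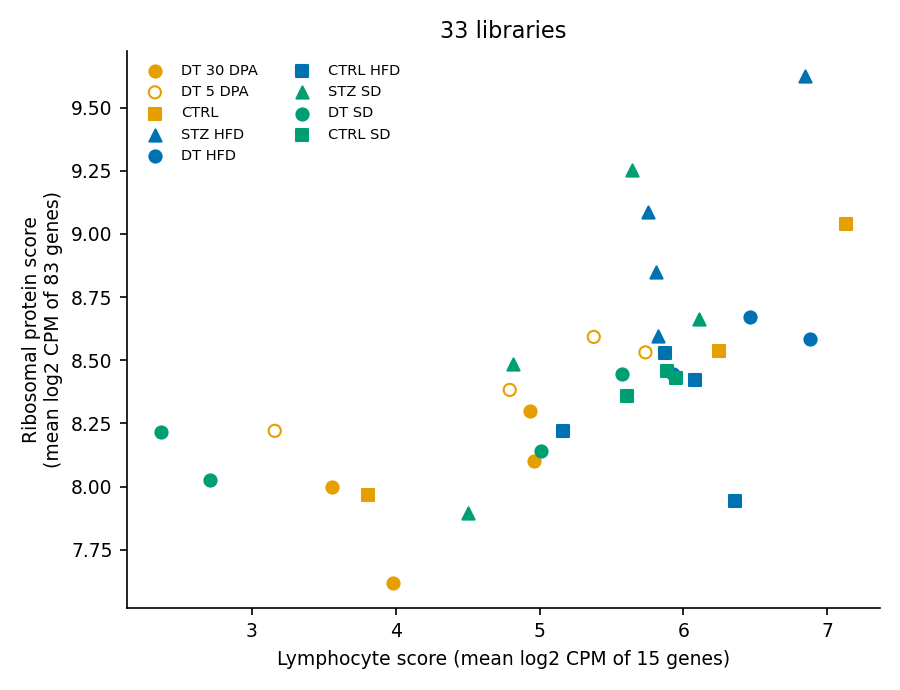
Each point is a library, with the mean log2 CPM of 15 lymphocyte markers on the x axis and the mean log2 CPM of the tested members on the y axis, and symbols for the groups. Libraries with a higher lymphocyte score tend to have a higher member score (r = 0.62), and the 5 highest member scores belong to 3 STZ HFD, 1 STZ SD and 1 CTRL library.

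The paralogs' levels across the 9 groups were as follows. Rps27l averaged 50.7 ± 7.61 CPM in DT 30 DPA islets, 71.5 ± 4.76 in DT 5 DPA and 40.7 ± 5.11 in CTRL, and 89.6 ± 36.9 in STZ HFD, 43.6 ± 7.00 in DT HFD and 42.8 ± 10.8 in CTRL HFD. On SD it averaged 77.1 ± 39.8 after STZ, 65.4 ± 14.0 after DT and 50.8 ± 3.43 in CTRL SD. Its highest mean levels were thus in the STZ groups, where libraries also differed most, and at DT 5 DPA. Rpl22l1 averaged 95.6 ± 36.9 in STZ HFD and 74.5 ± 38.5 in STZ SD islets, and between 50.9 and 66.7 in the other 7 groups. Rpl7l1 ran only between 47.3 (DT 30 DPA) and 64.2 (DT 5 DPA), and Rpl36al between 145 (CTRL and CTRL HFD) and 221 ± 37.8 (STZ HFD). Rps19bp1 lay between 8.85 and 12.2 in all groups, highest at DT 5 DPA.

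Counts of single members depend on how reads were divided among near-identical genes. GENCODE M21 transcripts of 84 members were compared, coding ones except for Rpl6l, which is annotated as a processed pseudogene. Of the 84, 81 shared at least one 50-base stretch with a transcript of another gene, and 23 shared at least 50% of their sequence. No label, header or note read here says how such reads were placed. Rpl10 held between 11% and 81.7% of the summed counts of Rpl10 and Rpl10-ps3, with a median of 31.8%. In DT HFD islets its share was 32.3%, 63.8% and 34.3%, and in DT SD islets 25.9%, 18.2%, 16.9% and 18%. The sum of both was 668 ± 38 CPM in DT HFD islets (SD, n = 3) and 713 ± 95 in DT SD islets (SD, n = 4), and its r with the other members was 0.87, against 0.49 for Rpl10 alone. Between control diets, CTRL HFD over CTRL SD gave a log2 fold change of 1.06 for Rpl10 and -0.08 for the sum. Rpl27 held only 3.57% to 10.4% of its pair with Rpl27-ps3, and its r was 0.47 alone and 0.99 summed. Rps18 held between 32.3% and 100% of its pair with Gm10260, with r of 0.80 alone and 0.97 summed. Rpl37 held only 6.69% to 11.8% of its pair with Rpl37rt, yet its r was 0.80 alone and 0.89 summed. Rpl21 held between 18.2% and 88.2% of its pair with BC004004, and its r remained low, 0.31 alone and 0.40 summed. BC004004 shared only 11.05% of the Rpl21 sequence, and Rpl21 shared stretches with 82 other genes. BC004004 ran between 35.9 and 66.2 CPM and Rpl21 between 10.6 and 327 CPM. This sum therefore does not show how reads of Rpl21 were divided. Rpl21 had the lowest log2 fold change of any member in DT HFD against DT SD (-1.52, edgeR adjusted p 0.147) and the highest in STZ HFD against CTRL HFD (1.44, edgeR adjusted p 0.362), and neither was called. With a copy added, r was above 0.8 for Rpl10, Rpl27 and Rps18 and under 0.5 for Rpl21.

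**Figure D5:**
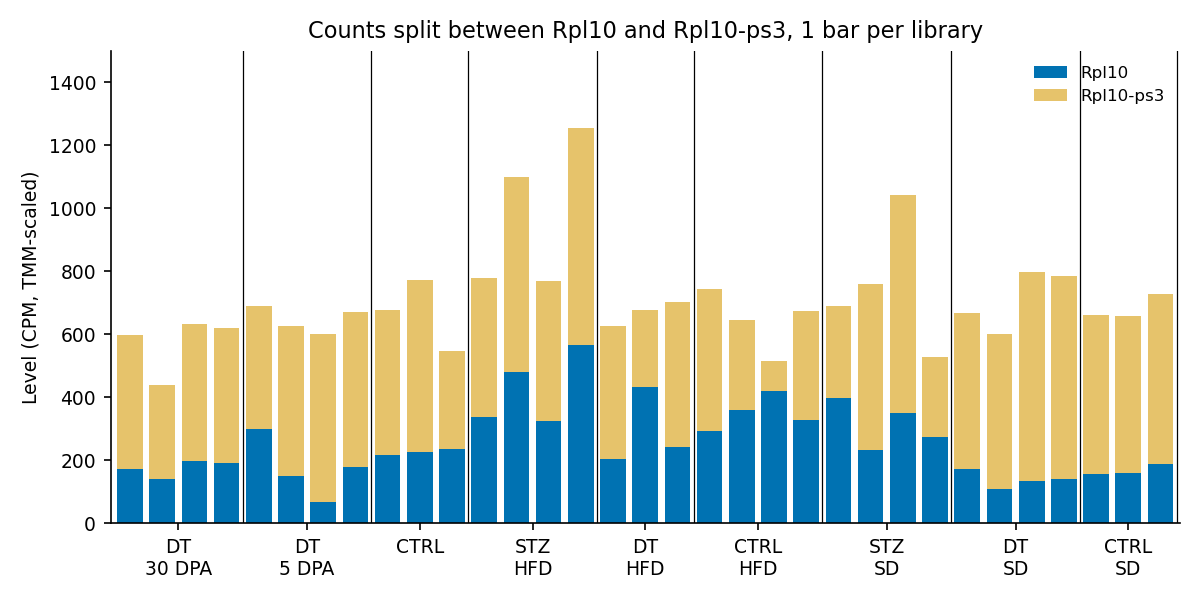
Each bar is a library, by group, with CPM of Rpl10 in blue and of its copy Rpl10-ps3 stacked on it in yellow. The blue part is higher in every DT HFD than in every DT SD library, while the whole bars of DT HFD (mean 668) and DT SD (mean 713) overlap.

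Other genes of the pathway were called in some of the same comparisons. In DT 30 DPA against DT 5 DPA islets, where 13.9% of all genes fell and 16.5% rose, 4 of 21 translation factors and other TOP genes fell and none rose: the poly(A) binding protein gene Pabpc1 fell by 0.90 (edgeR adjusted p 0.00405), and Btf3 by 0.58 and Eif3f by 0.48 on the log2 scale. Of 30 ribosome biogenesis genes, 2 fell, the ribosomal RNA methyltransferase Fbl by 0.72 (edgeR adjusted p 0.00777) and Myc, a driver of ribosome synthesis, by 0.91 (edgeR adjusted p 0.0378). Of 15 genes of mTORC1 and TOP control 4 rose and none fell, among them Mtor by 0.45 and the mTORC1 inhibitors Tsc1 by 0.51 and Tsc2 by 0.36. Of 77 mitochondrial ribosomal protein genes 1 rose and 7 fell, with Mrpl18 lower by 0.87. The shares of these lists lay on both sides of those of all genes. Without enterocyte-rich libraries, 0 genes of these 4 lists were called, and of the 9 genes behind these values and tests each lost its call under between 1 and 7 of 21 alternatives.

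In STZ HFD against CTRL HFD islets, where cytosolic ribosomal protein genes had a median of 0.80 and 0.329% of all genes rose and 0.142% fell, the 30 biogenesis genes had a median of -0.04 and 0 calls, and 1 of 21 TOP genes rose, Eif3k by 0.89 (edgeR adjusted p 0.0140). Of 77 mitochondrial ribosomal protein genes 5 rose, Mrps26 by 0.74, Mrps24 by 0.94 and Mrpl57 by 0.77 among them. These 4 named genes lost their calls under between 8 and 10 of 21 alternatives, among them the fit of the compared groups alone, library totals alone and the libraries without STZ HFD replicate 2 or 4 or CTRL HFD replicate 4 or 5. In DT HFD against DT SD islets, where 15.0% of all genes rose and 8.46% fell, the biogenesis list was the one with most calls: 17 of 30 genes rose and none fell, with a median of 0.50, led by Bop1 by 0.95 (edgeR adjusted p 0.00459), Rrs1 by 1.00 (edgeR adjusted p 0.00534) and the RNA polymerase I factor Ubtf by 0.47 (edgeR adjusted p 0.00551). The count was 0 with the lymphocyte covariate, 0 without DT HFD replicate 2, 0 without lymphocyte-rich libraries, 5 with the acinar covariate, 8 with the compared groups alone and 8 without DT SD replicate 1, and Bop1, Rrs1 and Ubtf reached an adjusted p of 0.501 among these. In the same comparison Pabpc1 rose by 0.77, 2 mTORC1 genes rose (Eif4ebp2 by 0.67 and Rps6kb2 by 0.52) and 2 fell, Rheb by 0.38 among them, and 3 mitochondrial ribosomal protein genes fell, Mrps33, Mrpl53 and Mrpl48. None of these was called with the lymphocyte covariate or without DT HFD replicate 2. The lymphocyte score did not overlap between DT HFD and DT SD libraries, so fits with it cannot decide these cells' part. With library totals alone, 16 mitochondrial ribosomal protein genes rose and 0 fell. In DT 5 DPA against CTRL islets, where 1.59% of all genes fell and 3.80% rose, Ubtf fell by 0.37 (edgeR adjusted p 0.0387), a call lost under 13 of 20 alternatives. These lists were chosen with earlier results of the data known, and their counts are descriptions.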

How the data were processed

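Bulk RNA sequencing of mouse islets gave 34 libraries, of which 33 fell in 9 labelled groups of 3 or 4. The library titled CTRL HFD replicate 1 carries DT as its treatment label and entered no comparison. The labels' protocols name the RNeasy Mini kit for RNA and the QIAseq stranded mRNA kit for libraries. Reads were placed on mm10, per the submitters' processing notes. For the aligner, counter, annotation and strand setting, no name or version appears in the labels, notes or headers. The deposited table holds raw counts per gene (the authors' total counts), which were used as they stand, and TPM computed by the authors, which were used only to compare levels between genes. It has 0 per-sample columns of other samples and 0 rows with no gene name. Totals per library ran from 11083117 to 18918348 counts, and no replicate pair agreed within sampling noise (lowest chi-square per degree of freedom 25.7).

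All 33 libraries entered 1 fit with edgeR 4.0.16 in R 4.3.3 (TMM scaling, filterByExpr with a minimum count of 10 and a minimum total of 15, robust quasi-likelihood fit), group as the only term, and Benjamini-Hochberg adjustment over the 17616 genes tested, with a call at an adjusted p under 0.05. CPM values are TMM-scaled, and log2 values used a prior count of 2. The steps were tested on simulated data. Alternatives were DESeq2 1.42.0 and its size factors, other scalings, no filter on low counts, the compared groups alone, the replicate number as a block, an acinar covariate, libraries rich in enterocyte or lymphocyte RNA left out, and each library left out. Chosen after seeing the data were summed copies (at least 10% shared sequence and 20000 counts), a lymphocyte covariate, library totals alone and the counts of pathway genes under each alternative. Copies were found by 50-base stretches shared between GENCODE M21 transcripts (GRCm38), and promoter sequences came from RefSeq (GRCm38.p6).

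The members and the gene lists were chosen with earlier results of these data known. Named are, in each comparison, up to 8 called members in each direction with the smallest adjusted p, as levels the stalk genes, Rps6, Rpl3 and the paralogs, with tests Rps27l and Rpl22l1 after DT, and up to 3 called genes of each pathway list. Members with extreme levels, copies or correlations, and those behind small counts, are named after their values were seen.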

Additional observations from a re-analysis of the deposited data

Results flagged for a closer look

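In DT 5 DPA islets, replicate 3 had 49.27 CPM of Rpl22l1, while the other 3 libraries of the group lay between 51.29 and 51.44. Its gap to the others was large against the group's very narrow range, and the difference is small in absolute terms. Of 29 combinations of group and value examined in this way this was the only one apart. Chance gives about 1 in 20, so 1 of 29 is no more than chance would give.

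The library that carries conflicting labels and belongs to no group had 5.775% of its counts on the ribosomal protein genes. The CTRL HFD libraries had between 3.184% and 4.088%.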

How the results depend on the processing

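Of 17616 genes tested, the number of ribosomal protein genes called moved with the processing wherever any was called. The cause was not tested. DT 30 DPA against DT 5 DPA (5 calls) gave 13 with DESeq2's Wald test, 8 with DESeq2's size factors in edgeR, 31 with the compared groups alone, 9 with the lymphocyte covariate, 8 without the filter on low counts, 9 with library totals alone, 1 without enterocyte-rich and 18 without lymphocyte-rich libraries, and 1 to 10 with single libraries left out. DT 30 DPA against CTRL (0 calls) gave 20 with DESeq2 and 0 to 48 with single libraries left out. STZ HFD against CTRL HFD (3 calls) gave 41 with DESeq2, 5 with the acinar covariate, 0 with the compared groups alone, 25 with the lymphocyte covariate, 1 without the filter, 0 with library totals alone, 14 without enterocyte-rich and 0 without lymphocyte-rich libraries, and 0 to 24 with single libraries left out. DT HFD against DT SD (3 calls) gave 7 with DESeq2, 0 with the acinar covariate, 24 with the compared groups alone, 0 with the lymphocyte covariate, 1 without the filter, 1 with scaling that left out hormone and acinar genes, 45 with library totals alone, 20 without enterocyte-rich and 0 without lymphocyte-rich libraries, and 0 to 4 with single libraries left out. STZ HFD against STZ SD gave 0 to 23 with single libraries left out. DT 5 DPA against CTRL gave 1 call with the compared groups alone and 1 without enterocyte-rich libraries, and DT HFD against CTRL HFD gave 1 without them. The other 5 comparisons gave 0 calls under every alternative run. Shares of all genes called are given above for DESeq2's Wald test and not for the other alternatives. Counts of members under those alternatives, here and above, therefore stand without a background. They describe how calls moved with the processing and are not results about the members.

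Library totals alone moved the median of all genes, most in DT HFD against DT SD (0.45), where members had 0.89 and stood 0.43 above it. In STZ HFD against CTRL HFD the median of all genes was then -0.22, and members at 0.59 stood 0.80 above it. The members' median turned sign in DT 5 DPA against CTRL (0.51 without lymphocyte-rich libraries, 0.09 with the lymphocyte covariate), in DT 30 DPA against CTRL (0.04 without lymphocyte-rich libraries), in DT SD against CTRL SD (0.20), DT HFD against DT SD (-0.14) and DT by diet (-0.03) with the lymphocyte covariate. Without lymphocyte-rich libraries, CTRL and DT HFD keep 1 library each, and without enterocyte-rich ones DT 5 DPA keeps 1, assumed to vary like the other groups.

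Groups share replicate numbers, but no label says that a number marks a shared animal or day, and in no comparison were all same-numbered pairs correlated above 0.1. With the replicate block, DT 30 DPA against DT 5 DPA gave 3 calls, STZ HFD against CTRL HFD 0 and DT HFD against DT SD 1, and Rpl22l1 in DT 5 DPA against CTRL had a log2 fold change of 0.0078.

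Rpl22l1 turned sign further in DT 5 DPA against CTRL, at 0.038 with the lymphocyte covariate, 0.14 without enterocyte-rich and 0.18 without lymphocyte-rich libraries, and between -0.15 and 0.18 with single libraries left out. In DT 30 DPA against DT 5 DPA it was -0.011 with DESeq2, -0.011 with its size factors, -0.014 with the compared groups alone, -0.040 without the filter, -0.17 with library totals alone, -0.022 without lymphocyte-rich libraries, and between -0.049 and 0.10 with single libraries left out. In DT HFD against DT SD, Rpl10 was -0.10 with its copy added, and with library totals alone Rheb was 0.090 and Mrpl48 0.050.

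Groups of 3 or 4 libraries limit the precision more than depth for members with high counts, and Rpl39l and Rpl6l were too low to test.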
